A study of Mus musculus with 10 samples.

Results

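The forkhead (Fox) genes were followed through single-cell transcriptomes of the developing mouse lower incisor region. Members were all features of the deposited matrices whose symbol was Fox, a family letter and a number, such as Foxd1, which gave 44 of 32285 features. Genes named as antisense to a member and the Foxred genes, whose symbols have other endings, were not counted as members. All embryos were wild-type NMRI mice, with no transgene or treatment, so the groups differed by embryonic day and dissection. The E11.5 cells came from whole mandibles, described by 4 samples in the labels, and the E14.5 and E16.5 cells came from lower incisor buds, described by 4 and 2 samples. Several litters gave embryos at each day and the dissected tissues were processed one by one, but the deposited matrix of a stage holds their cells together. Its barcodes could not be assigned to the samples, and a stage was for that reason taken as 1 sample that has no replicate check. Stage, dissection and library cannot be told apart in any comparison between days.

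Forkhead proteins bind DNA through a shared winged-helix domain, and the family letter groups members of like sequence. Foxf1, Foxf2, Foxl1, Foxc and Foxd genes are known from embryonic mesenchyme, where Foxf genes are responsive to hedgehog ligands sent out by neighbouring epithelium. Foxo proteins are kept out of the nucleus by insulin and PI3K signalling, Foxm1 drives genes of the G2 and M phases, and Foxp proteins are mostly repressors that bind DNA as dimers. In the mandibular arch, Barx1 marks proximal mesenchyme, Hand2 distal mesenchyme and Msx1 the mesenchyme around the midline and the tooth germs.

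The matrices held unique molecular identifiers (UMIs, each standing for 1 captured transcript). After cells with under 700 genes or over 20% mitochondrial UMIs were left out, 6573, 6091 and 4511 cells remained at the 3 stages from E11.5 to E16.5, with medians of 5664, 3471 and 6260 UMIs. Cells were clustered without the Fox genes and named from marker lists. Genes that lead a cluster are highest in it against cells of other classes, not against other clusters of its own class. Mesenchyme made up 6005, 4612 and 2554 cells in order of stage, and epithelium made up 989 and 1759 cells at the later stages. No epithelial cluster was found at E11.5, although the labels call the tissue developing incisor. A cluster of 171 cells at E16.5, led by globin and endothelial genes together, stayed unnamed. The E11.5 endothelial and muscle clusters were mixed: by their own markers 60 of 234 and 75 of 130 cells, respectively, were of the class that named the cluster. Levels are UMI counts scaled to the total of a group (CPM, counts per 1000000 UMIs), with all cells of the group pooled and with exact Poisson 95% intervals that cover counting error only. Because 3' libraries count transcript ends, a CPM value does not scale with transcript length. Across stages, 46 barcodes occurred in more than 1 matrix.

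Fox transcripts were found in most cells. At E11.5, 31417 Fox UMIs (661 CPM) were counted and 88.1% of cells held at least 1 of them. The E14.5 matrix held 12660 (456 CPM, 74.1% of cells) and the E16.5 matrix 21353 (534 CPM, 88.4% of cells). With at least 10 UMIs as the limit, 24, 25 and 26 members were detected at the 3 stages and 29 over their sum. Foxp1, a repressor with broad roles in epithelia and lymphocytes, was the most abundant member at every stage and took 27.7%, 28.2% and 33.2% of the Fox UMIs. The 5 most abundant members together took 69.9%, 67.5% and 69.3%. Foxn3, a repressor linked to cell-cycle checkpoints, was second at each stage.

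At the other end, 6 members had no UMI at any stage: Foxa1, Foxb2, Foxd4, Foxe3, Foxi1 and Foxi2. Over all 115303804 UMIs, a floor of 3 counts would be 0.0260 CPM. For a count of 0 the Poisson intervals reached up to 0.0776, 0.133 and 0.0922 CPM in order of stage. A further 12 members had between 1 and 49 UMIs. Among these were Foxs1 with 46, Foxi3, which is needed for ectodermal placodes and teeth, with 33, and Foxn1, a factor of hair follicle and thymus epithelium, with 25. Foxi3 had 23 of its 33 UMIs and Foxn1 20 of its 25 in the E16.5 epithelium, at 1.2 CPM (0.762 to 1.80) and 1.05 CPM (0.639 to 1.62). The remaining 9 members of this set had 5 UMIs or fewer.

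**Figure D1:**
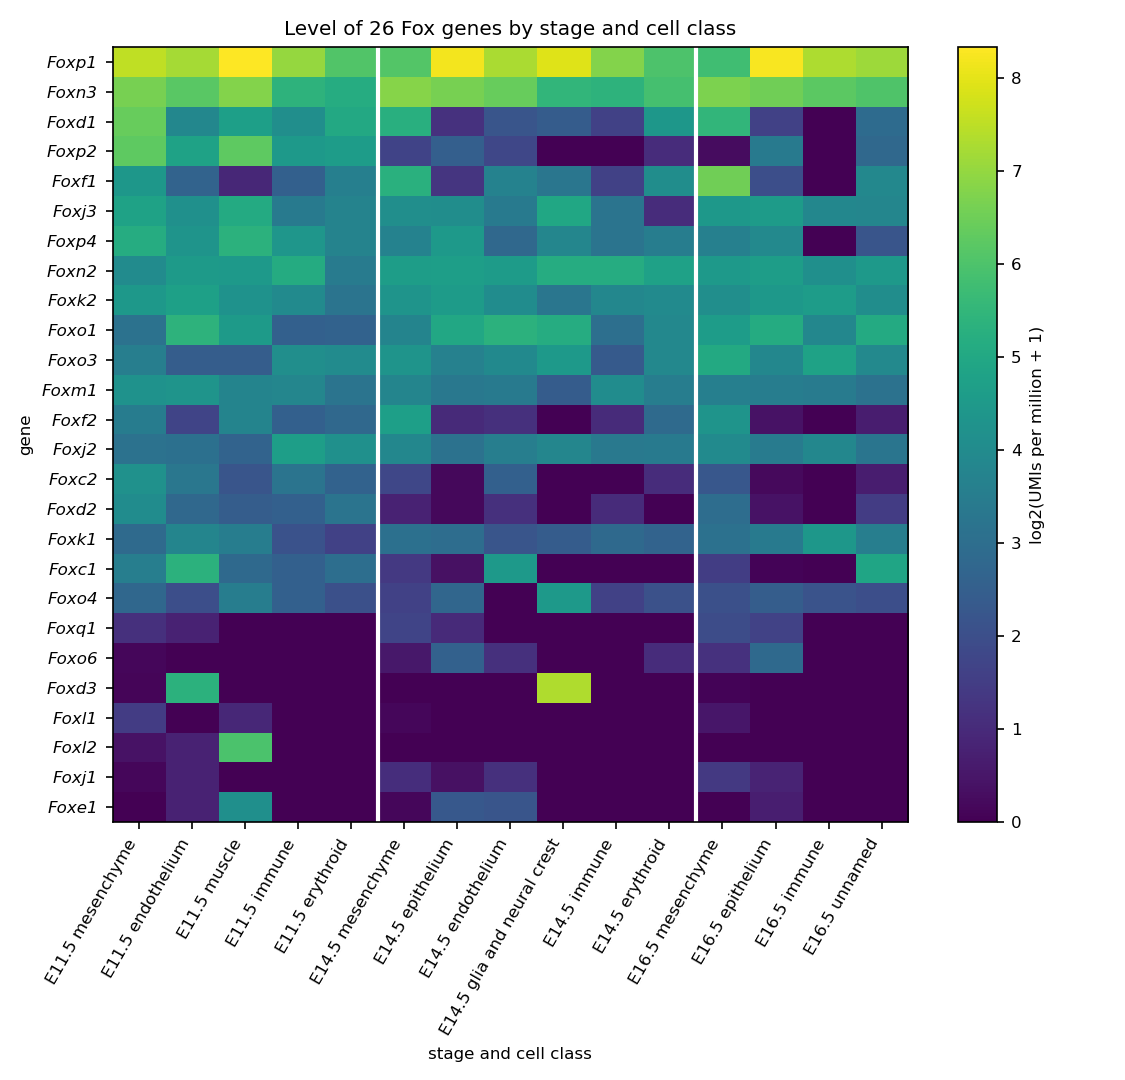
Heat map of the 26 Fox members with at least 50 UMIs over the stages (rows) in each cell class of each stage (columns), with colours for log2 of CPM with 1 CPM added. Foxp1 and Foxn3 stand out in nearly every column, Foxd1 and Foxf1 in the mesenchyme columns, Foxd3 in the E14.5 glia and neural crest column at 161 CPM and Foxl2 in the E11.5 muscle column at 62.4 CPM.

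Foxn3 showed nearly the same level in mesenchyme and epithelium at E14.5 and E16.5. Its mesenchymal levels were 98.0, 113 and 102 CPM in order of stage, and its epithelial levels were 98.4 and 91.6 CPM at E14.5 and E16.5. The other members without a marked class were lower. Foxk2, a regulator of metabolic genes, ranged from 16.3 to 22.8 CPM over these 5 groups. Foxj3 ranged from 15.9 to 26.8 CPM, and Foxn2 from 15.4 to 24.2 CPM. Several of these intervals overlap, so that no order among Foxk2, Foxj3 and Foxn2 is given.

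Foxd1, Foxf1 and Foxf2 were higher in mesenchyme and Foxp1 in epithelium, at both days with an epithelial cluster. Foxd1, a marker of kidney stroma, was at 37.1 CPM (34.3 to 40.0) in E14.5 mesenchyme and 1.29 CPM (0.590 to 2.45) in epithelium. At E16.5 it was at 44.3 CPM (41.4 to 47.4) against 2.09 CPM (1.49 to 2.85). Foxf1 was at 38.3 against 1.43 CPM at E14.5 and at 92.5 against 2.98 CPM at E16.5. Foxf2, its close relative, was at 25.0 against 1.0 CPM and then at 18.9 against 0.314 CPM. At both days nearly all UMIs of these genes in the 2 classes were thus mesenchymal.

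Foxp1 had the opposite distribution. It was at 289 CPM (276 to 302) in epithelium and 67.8 CPM (64.0 to 71.7) in mesenchyme at E14.5, and at 303 CPM (295 to 310) against 53.7 CPM (50.4 to 57.1) at E16.5. At E14.5 64.7% of epithelial cells and 19.6% of mesenchymal cells held a Foxp1 UMI. Foxp2, a repressor that pairs with Foxp1, was at 4.73 against 2.19 CPM at E14.5. At E16.5 it was at 9.93 against 0.211 CPM, from 190 and 4 UMIs. Foxo1 was higher in epithelium at E14.5, at 30.8 against 12.7 CPM. Foxo6, a member known best from brain, was at 6.22 CPM in E16.5 epithelium and 1.27 CPM in mesenchyme.

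A gene was called when its CPM ratio was at least 2-fold among genes with at least 50 UMIs over both groups, which is a rule of size and no test. At E14.5, 7 of 16 members were past 2-fold between epithelium and mesenchyme, 4 higher and 3 lower in epithelium, beside 21.0% of all 11553 genes. The log2 ratios were -4.84 (-5.98 to -3.91) for Foxd1, -4.74 (-5.81 to -3.85) for Foxf1 and -4.64 (-5.96 to -3.58) for Foxf2. They were 2.09 (1.99 to 2.19) for Foxp1, 1.28 for Foxo1, 1.47 for Foxo4 and 1.11 for Foxp2. The Foxp2 ratio had the other sign, at -0.50 from 23 UMIs, when each cell was thinned to 2000 UMIs. At E16.5, 9 of 20 members were past 2-fold, 3 higher and 6 lower, beside 22.1% of all 12710 genes. Foxp1 had a log2 ratio of 2.49 (2.40 to 2.59), Foxp2 of 5.56 (4.18 to 7.45) and Foxo6 of 2.30 (1.65 to 2.99). The lower members were Foxf2 at -5.91, Foxf1 at -4.96, Foxc2 at -4.60, Foxd2 at -4.47, Foxd1 at -4.41 and Foxo3 at -1.27. Members with few UMIs, such as Foxc2 with 3 and 72, passed the 50-UMI limit only through the group in which they were high, so that the count of called members carries that selection.

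**Figure D2:**
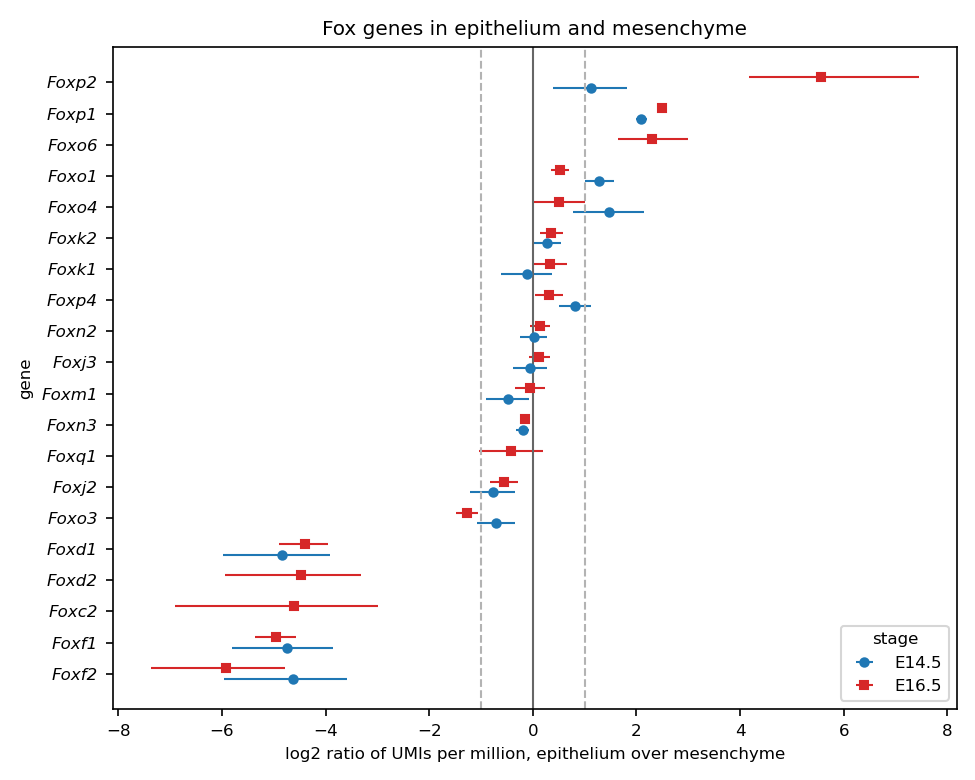
Log2 ratio of CPM in epithelium over mesenchyme at E14.5 and E16.5 for each Fox member with at least 50 UMIs, with exact 95% intervals for counting error and lines at the 2-fold limits. Foxd1, Foxf1 and Foxf2 lie below -4 at both days and Foxp1 lies above 2 at both days.

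Mesenchymal transcripts were also counted in the epithelial clusters at a low level. The summed level of the mesenchymal marker list was 353 CPM in epithelium against 4222 CPM in mesenchyme at E14.5, and 721 against 5370 CPM at E16.5. The summed epithelial list was at 2122 against 77.6 CPM and 2823 against 178 CPM. Erythroid cells, which should lack these factors, held 20.2 CPM of Foxd1 (12.2 to 31.5) and 15.9 CPM of Foxf1 (8.92 to 26.3) at E14.5, both above the epithelial levels. The part of free RNA and of doublets in these low levels was not tested.

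Within the epithelium the Foxp and Foxo genes were uneven. At E16.5 the epithelial cells fell into 3 clusters, led by Isl1 (843 cells), by Krt17 and Krt5 (565 cells) and by Gnrh1 and Vwde (351 cells). The leading genes of the Isl1-led cluster held Krt14, Krt17 and Krt5 as well. Foxp1 was at 299, 441 and 124 CPM in the 3 clusters. Foxo1 was at 19.0, 68.9 and 28.0 CPM and was thus highest in the keratin-led cluster too. Foxp2 was instead highest in the Gnrh1-led cluster, at 23.3 CPM against 7.30 CPM in the Isl1-led and 5.84 CPM in the keratin-led cluster. Foxq1, a gene of hair and gut epithelium, was at 7.76 CPM (5.15 to 11.2) in the Gnrh1-led cluster and 0.379 CPM (0.103 to 0.971) in the Isl1-led cluster. The Foxo6 and Foxn1 levels were highest in the keratin-led cluster, at 12.1 CPM (9.23 to 15.6) and 3.22 CPM (1.84 to 5.24). These are descriptions of clusters and no comparison of replicates.

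Sox2 marks epithelial progenitors of the incisor, and the epithelial cells were split by whether they held a Sox2 UMI. At E14.5 none of 10 members with at least 50 UMIs was past 2-fold between 190 Sox2+ and 799 Sox2- cells, beside 1.55% of all 8530 genes. At E16.5, with 136 Sox2+ and 1623 Sox2- cells, 3 of 15 members were past it, all lower in Sox2+ cells, beside 6.46% of all 11168 genes. These were Foxf1 at a log2 ratio of -2.07 (-5.15 to -0.15), Foxo4 at -1.63 (-3.54 to -0.22) and Foxo6 at -1.29 (-2.64 to -0.20). The Sox2- group was the larger at E16.5, with 16587616 UMIs against 2537156. Scarce members high in Sox2- cells thus met the 50-UMI limit more easily, and the shared direction of the 3 carries that selection. The Foxf1 value rested on 2 and 55 UMIs and was -0.19 when the top 5% of cells by doublet score were removed. Foxp1 was at 380 CPM in Sox2+ and 291 CPM in Sox2- cells, a log2 ratio of 0.39. Sox2+ cells were deeper, with medians of 10906 against 6533 UMIs at E16.5 and 7810.5 against 3753 at E14.5, and more of them held an Mki67 UMI, at 69.1% against 46.3% and 67.4% against 40.7%. The summed erythroid list was at 363 against 1174 CPM at E14.5, with 6 of 6 tested markers past 2-fold lower in Sox2+ cells, and at 766 against 1230 CPM at E16.5. The neuron list was at 65.4 against 204 CPM at E16.5, with 3 of 4 past 2-fold lower. The part of depth, proliferation and other cell types in these values was not tested.

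In mesenchyme, the genes Foxp1, Foxp2, Foxp4, Foxc1, Foxc2, Foxd1 and Foxd2 were lower at E14.5 than at E11.5. Foxp2 went from 75.3 CPM (72.8 to 78.0) at E11.5 to 2.19 CPM (1.56 to 2.99) at E14.5 and 0.211 CPM (0.0576 to 0.541) at E16.5. Foxp1 was at 184, 67.8 and 53.7 CPM, and Foxp4 at 34.8, 12.0 and 11.4 CPM. All 3 Foxp genes were therefore highest in E11.5 mesenchyme. The Foxc genes, which are required in neural crest and vessel development, were also highest there. Foxc1 was at 10.9, 1.63 and 1.85 CPM and Foxc2 at 17.8, 2.41 and 3.80 CPM. Foxd1 was at 82.7, 37.1 and 44.3 CPM.

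The Foxf genes did not share this course. Foxf1 was at 20.2 CPM (18.9 to 21.6) at E11.5, 38.3 CPM (35.5 to 41.3) at E14.5 and 92.5 CPM (88.2 to 96.9) at E16.5. Foxf2 was at 10.4, 25.0 and 18.9 CPM. Foxd2, a relative of Foxd1, was at 15.7, 0.729 and 6.97 CPM and so was lowest in the middle stage. Foxo1 was at 7.91, 12.7 and 23.3 CPM and Foxo3 at 10.7, 19.1 and 32.4 CPM.

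Between E11.5 and E14.5, 10 of 21 members were past 2-fold, 1 higher and 9 lower at E14.5, beside 21.7% of all 12770 genes. The median log2 ratio was -0.50 over the 21 members and -0.20 over all genes. Foxf2 was the member past 2-fold that was higher, at 1.26. The lower members were Foxp2 at -5.11, Foxd2 at -4.43, Foxl1 at -4.02, Foxc2 at -2.88, Foxc1 at -2.74, Foxp4 at -1.54, Foxo4 at -1.51, Foxp1 at -1.44 and Foxd1 at -1.16. The E11.5 group was the larger, with 43465556 UMIs against 17830624, so members high at E11.5 met the 50-UMI limit more easily, and the count was 5 with 10 CPM added to both levels. The Foxd1 ratio was -0.67 without the E11.5 cluster led by Cited1. Between E14.5 and E16.5, 2 of 20 members were past 2-fold, Foxd2 at 3.26 (2.43 to 4.20) and Foxf1 at 1.27 (1.14 to 1.40), both higher at E16.5, beside 9.69% of all 12265 genes, a share close to that of the members. Median depth moved with the stages, at 5693, 3251.5 and 5958.5 UMIs in mesenchyme, and so did the share of mesenchymal cells with an Mki67 UMI, at 65.2%, 31.0% and 28.7%. Markers of other cell types moved too. The bone list was at 3.43, 210 and 192 CPM, with 4 of 4 tested markers past 2-fold higher at E14.5 than at E11.5, and the epithelial list at 8.88, 77.6 and 178 CPM, with 7 of 7 and then 6 of 10 past 2-fold higher. The list of mural (vessel-associated) cells was at 36.1, 40.4 and 130 CPM, with 4 of 6 and then 5 of 7 past 2-fold higher. The part of all these in the differences was not tested.

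**Figure D3:**
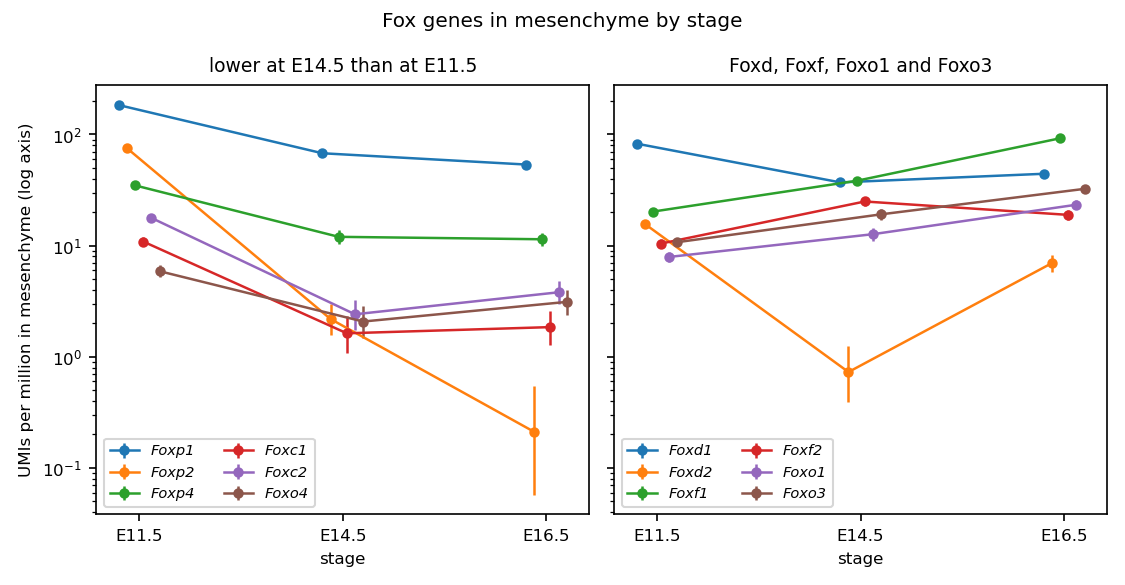
CPM level of Fox members in mesenchyme by stage (x axis) on a log axis, 1 line a gene, with exact Poisson 95% intervals. Foxp2 goes from 75.3 to 0.211 CPM, Foxf1 from 20.2 to 92.5 CPM, and Foxd2 has its lowest level, 0.729 CPM, at E14.5.

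The mesenchymal clusters of each day differed in their Fox levels. The 5 clusters at E14.5 had Foxd1 levels from 8.42 to 90.3 CPM and Foxf1 levels from 4.93 to 73.6 CPM. The cluster led by Pax3 and Osr1 (534 cells) had the lowest Foxf1 level. At E16.5, Foxf1 was at 68.1 CPM or more in all 5 mesenchymal clusters and reached 168 CPM (152 to 187) in a cluster of 371 cells. Foxq1 was at 12.0 CPM (7.83 to 17.6) in that same cluster. Foxc2 at E16.5 was counted nearly only in 1 cluster of 439 cells led by Sfrp4, at 21.2 CPM (16.4 to 27.0), with 66 of the 72 mesenchymal UMIs. In that cluster Foxc1 was at 8.99 CPM and Foxs1, a gene of vessel-associated cells, at 5.14 CPM. These levels are descriptions, since the clusters were made from the same cells.

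At E11.5 the mesenchyme could be read against Barx1, Hand2 and Msx1. Cells with a Barx1 UMI and none of Hand2 (1968 cells) were compared with cells with a Hand2 UMI and none of Barx1 (1423 cells), at medians of 5778.5 and 5997 UMIs. The Foxf and Foxd2 genes were higher on the Hand2 side, and the Foxc genes on the Barx1 side. Foxf1 was at 10.1 CPM in Barx1+ Hand2- cells and 31.0 CPM in Hand2+ Barx1- cells, and Foxd2 at 5.69 and 25.4 CPM. Foxc1 was at 16.1 and 2.84 CPM, Foxc2 at 21.8 and 7.67 CPM and Foxp4 at 43.0 and 19.6 CPM. Foxl1, a mesenchymal signal regulator of the gut that lies beside Foxf1 and Foxc2, was at 2.85 and 1.23 CPM.

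Of 20 members, 6 were past 2-fold in this comparison, 4 higher and 2 lower in the Barx1+ cells, beside 4.19% of all 10966 genes. The log2 ratios were 2.5 (1.94 to 3.10) for Foxc1, 1.51 (1.15 to 1.88) for Foxc2, 1.21 (0.27 to 2.24) for Foxl1 and 1.13 (0.90 to 1.37) for Foxp4. They were -2.16 (-2.54 to -1.79) for Foxd2 and -1.62 (-1.92 to -1.33) for Foxf1. Foxp2 just missed the limit at 0.96, with 102 against 52.4 CPM, as did Foxf2 at -0.85. Foxl1 was scarce, with 9 and 30 UMIs in Barx1+ Hand2- cells with and without an Msx1 UMI. In Hand2+ Barx1- cells it had 5 and 8. The Barx1+ Hand2- group was the larger, with 13706624 UMIs against 10559540. Scarce members high in it thus met the limit on counts more easily, and the count of 4 higher carries that selection. With 10 CPM added to both levels the Foxl1 ratio was 0.19, and 3 members were past 2-fold. One cluster of 1204 cells, led by Cited1 and Hand2, carried the Foxf1 and Foxd2 differences. Without it the log2 ratio was -0.15 for Foxf1 and -0.73 for Foxd2, and it was 2.60 for Foxc1, 2.05 for Foxc2, 1.28 for Foxp4 and 1.2 for Foxl1. With each cell thinned to 2000 UMIs the Foxf1 ratio was -0.94 and the Foxd2 ratio -1.49.

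In that Cited1-led cluster Foxf1 was at 68.6 CPM (63.3 to 74.2), Foxf2 at 25.9 CPM, Foxd2 at 48.2 CPM and Foxd1 at 173 CPM. Foxf1 and Foxd1 were among its 10 leading genes against cells of other classes, although no Fox gene was used to make the clusters. In the other 4 mesenchymal clusters Foxf1 was between 4.91 and 29.3 CPM and Foxd2 between 3.98 and 17.7 CPM. The cluster led by Msx1 (818 cells), whose leading genes held Alx1, had the lowest Foxd1, at 10.2 CPM (8.19 to 12.5), and the lowest Foxp1, at 81.0 CPM (75.2 to 87.2). In the Barx1-led clusters Foxp2 reached 116 CPM and Foxc1 19.1 CPM (17.0 to 21.5).

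Msx1+ cells held less of many Fox members than Msx1- cells. Foxd1 was at 53.7 CPM in 2537 Msx1+ cells and 116 CPM in 3468 Msx1- cells, Foxf1 at 13.3 and 28.1 CPM, Foxf2 at 7.10 and 14.2 CPM and Foxd2 at 10.7 and 21.4 CPM. Of 21 members, 6 were past 2-fold, all lower in Msx1+ cells, beside 2.08% of all 11903 genes. Besides these 4, with log2 ratios of -1.11, -1.08, -1.0 and -1.0, they were Foxl1 at -1.84 and Foxq1 at -1.06. Foxf2 and Foxd2 stood at the limit itself and were past 2-fold in 5 and 9 of 14 alternative settings. Foxl1 and Foxq1 were scarce, with 80 and 55 UMIs over all E11.5 cells. With 10 CPM added to both levels the count was 0. The median log2 ratio was -0.63 over the members and -0.02 over all genes. The call count was 3 without the Cited1-led cluster, where the ratios were -0.98 for Foxd1, -0.69 for Foxf1, -0.93 for Foxf2 and -0.36 for Foxd2. These 4 were thus no longer past 2-fold, and the 3 called there were not all among the 6. Without a cluster of 1180 cells of low depth (a median of 2053.5 UMIs) the count was also 3. The share of all genes past 2-fold is not given beside either count. The Msx1+ cells were deeper than the Msx1- cells, at medians of 7171 and 4724.5 UMIs, and the summed erythroid list was at 994 and 1637 CPM. The part of depth and free RNA was not tested.

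Split by all 3 marker genes, the mesenchyme gave 8 combinations of 471 to 1327 cells. Foxf1, Foxf2 and Foxd2 were each highest in the 577 cells with Hand2 and neither of the others, at 66.7, 32.2 and 55.4 CPM. In the 641 cells with Barx1 and Msx1 but no Hand2 they were at 6.16, 3.76 and 4.96 CPM. Foxc1 was lowest in the 846 cells with Msx1 and Hand2 but no Barx1, at 2.15 CPM, and Foxd1 was also lowest there, at 30.2 CPM. Foxp2 was highest in the 837 cells with none of the 3 genes, at 138 CPM, and in the 1327 cells with Barx1 alone, at 129 CPM. Foxn3 stayed between 91.1 and 111 CPM over the 8 combinations, and Foxm1 between 16.1 and 19.8 CPM. Median depth ranged from 2842 UMIs in cells with none of the 3 to 10003 in cells with all 3.

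**Figure D4:**
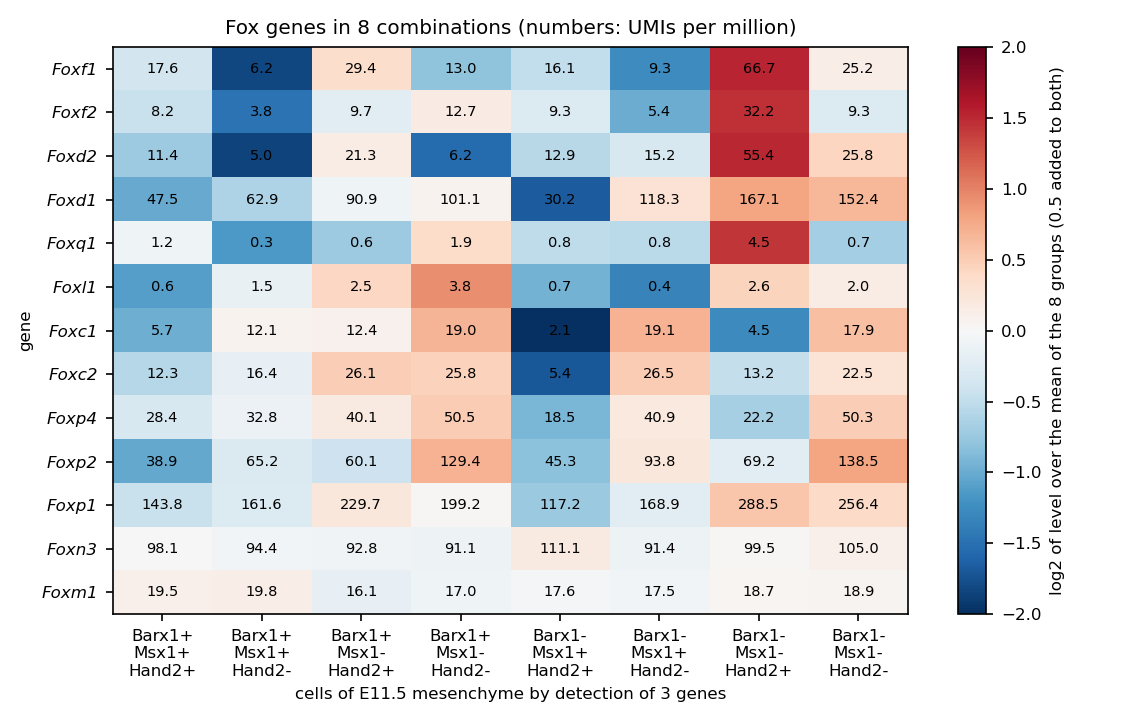
Heat map of Fox members (rows) in E11.5 mesenchyme for the 8 combinations of cells with or without a Barx1, Msx1 and Hand2 UMI (columns). Numbers give the CPM level and colours the log2 of the level over the mean of the 8 groups, with 0.5 CPM added to both. Foxf1, Foxf2 and Foxd2 are highest in cells with Hand2 alone, and Foxn3 is nearly even across the combinations.

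Co-detection in single cells was counted after each cell was thinned to 2000 UMIs, which left 5403 of the 6005 mesenchymal cells. Of 19 members found in at least 50 cells, Foxd2 was in 4.97% of Hand2+ and 2.93% of Hand2- cells, and Foxf1 in 5.04% and 3.27%. Foxc1 was in 0.7% and 2.3%, and Foxp4 in 4.6% and 7.2%. Without thinning, the Foxd2 shares were 12.8% and 4.98% and the Foxf1 shares 15.5% and 5.83%. For Msx1 the widest gaps were those of Foxp1, in 20.4% of Msx1+ and 30.9% of Msx1- cells, and of Foxd1, in 6.9% and 14.52%. The intervals overlapped for 12 of the 19 members with Hand2 and for 12 with Msx1. For Barx1, 17 of the 19 members had overlapping intervals in Barx1+ and Barx1- cells. Foxc1, at 2.33% and 1.71%, and Foxc2, at 3.34% and 2.99%, were among these 17. The same count over all genes was not made, so these counts are not read as a result about the members. For comparison, 121 erythroid cells, which were taken to lack most members, were thinned alike, at a median of 6782 UMIs before thinning against 6170 in mesenchyme. They held Foxf1 in 2.48% (0.514% to 7.07%) of cells against 3.70% of mesenchymal cells, which lies within that interval. The same held for Foxd2, at 1.65% (0.201% to 5.84%) against 3.42%, and for Foxf2, at 1.65% against 2.05%. The Foxf1 and Foxd2 intervals also cover their shares in Hand2+ and Hand2- cells. Foxj2 (4.96% against 1.72%), Foxn2 (4.13% against 3.16%) and Foxo1 had higher shares in erythroid cells. An erythroid share is for that reason not taken as the level of free RNA for every member. For Foxd1, Foxp1, Foxp2, Foxp4, Foxn3 and Foxc2 the mesenchymal share lay above the erythroid interval. The part of free RNA was not tested. For Foxd1 the shares were 4.96% and 12.6%, for Foxp1 10.7% and 28.3%, and for Foxc1 and Foxc2 0 of 121 erythroid cells against 1.94% and 3.13%. For 0 of 121 cells the exact Clopper-Pearson interval reaches up to 3.0%.

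The Foxf, Foxc, Foxl1 and Foxq1 genes lie in groups on the genome. In the GRCm38 annotation, Foxf1 (chr8:121084386-121088144), Foxc2 (chr8:121116171-121118895) and Foxl1 (chr8:121127940-121130644) lie within 46.3 kb. Foxq1 (chr13:31556134-31560976), Foxf2 (chr13:31625816-31631403) and Foxc1 (chr13:31806633-31812476) lie within 256 kb. Neighbours did not share 1 pattern. In both groups the Foxf gene had its higher level on the Hand2 side and the Foxc gene on the Barx1 side, with Foxf2 short of the limit. Foxf1, Foxc2 and Foxl1 all overlap an annotated same-strand gene, Gm20388, that is not among the features. Whether their counts include reads of it was not tested. Of the 44 members, 12 overlap an annotated gene on the same strand, with Foxp1, Foxn3, Foxp2 and Foxm1 also among them.

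Promoter windows of 250 bases upstream of the start are shown for 4 of the members whose levels separated the Barx1, Hand2 and Msx1 cells and for which a RefSeq window of GRCm38.p6 was at hand. Each is printed 5' to 3' on the strand of the gene, with a CCAAT box, read on either strand as CCAAT or ATTGG, in capitals. Foxd1 (chr13:98353995-98354244, plus strand) and Foxc1 (chr13:31806396-31806645, plus strand) each had 1 box, at 192 and 101 bases before the start. Foxd2 (chr4:114908899-114909148, minus strand) and Foxf2 (chr13:31625566-31625815, plus strand) had none.
Foxd1: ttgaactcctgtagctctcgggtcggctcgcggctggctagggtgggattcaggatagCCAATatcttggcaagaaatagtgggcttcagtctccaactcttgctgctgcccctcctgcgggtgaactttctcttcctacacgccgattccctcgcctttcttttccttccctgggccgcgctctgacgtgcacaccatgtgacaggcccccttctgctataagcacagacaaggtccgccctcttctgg
Foxc1: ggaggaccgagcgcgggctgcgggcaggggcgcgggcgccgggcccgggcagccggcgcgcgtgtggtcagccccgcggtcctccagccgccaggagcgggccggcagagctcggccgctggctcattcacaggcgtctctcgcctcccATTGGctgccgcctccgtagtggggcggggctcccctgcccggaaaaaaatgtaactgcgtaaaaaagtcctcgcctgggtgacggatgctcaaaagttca
Foxd2: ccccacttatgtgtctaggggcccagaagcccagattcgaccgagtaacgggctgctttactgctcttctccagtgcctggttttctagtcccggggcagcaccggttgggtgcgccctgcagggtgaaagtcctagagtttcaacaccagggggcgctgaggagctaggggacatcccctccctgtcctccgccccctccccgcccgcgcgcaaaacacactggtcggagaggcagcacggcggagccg
Foxf2: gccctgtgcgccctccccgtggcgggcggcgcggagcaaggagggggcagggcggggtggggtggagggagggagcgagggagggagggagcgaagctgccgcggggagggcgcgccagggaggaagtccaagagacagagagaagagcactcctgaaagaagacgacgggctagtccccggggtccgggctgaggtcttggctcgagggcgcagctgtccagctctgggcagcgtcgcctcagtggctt

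Their GC contents were 57.2% for Foxd1, 70.8% for Foxc1, 64.4% for Foxd2 and 71.6% for Foxf2. The median was 62.0% over the 33 windows of 28 Fox genes and 52.4% over all 32851 windows. A CCAAT box stood in 14 of the 33 Fox windows and in 33.8% of all windows. The TATA box (TATAAA, both strands) stood in 3 of the 33, those of Foxa2, Foxa3 and Foxp3, against 12.4% of all windows. A forkhead motif (GTAAACA, both strands) was found in 1 of the 33, that of Foxa1, against 3.17% of all windows, and the Gli motif (GACCACCCA, both strands) in none of the 33, against 0.225% of all windows. A match describes letters and not a bound site, and a missing match says only that the letters are not in this window.

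Some members marked small cell groups. Foxd3, a factor of neural crest and Schwann cell precursors, was at 161 CPM (114 to 223) in the E14.5 glia and neural crest cluster, with 37 UMIs in 22 of 47 cells. At E11.5 it was found in the cluster named endothelium, where 46 of its 53 UMIs lay in 12 of the 16 cells that held glia and neural crest markers. Foxl2, known from ovary and eyelid, was at 62.4 CPM (48.6 to 78.8) in the E11.5 muscle cluster and 0.322 CPM in mesenchyme. Of its 70 UMIs there, 47 lay in 31 of the 75 cells with muscle markers. Foxe1, a factor of pharyngeal and oral epithelium, had 19 UMIs in 2 cells of that muscle cluster, both among its 13 cells with epithelial markers. At E14.5 it was at 3.87 CPM in epithelium.

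The endothelial clusters held Foxc1 and Foxo1. Foxc1 was at 39.7 CPM (29.8 to 52.0) in the E11.5 and 21.8 CPM (12.9 to 34.4) in the E14.5 endothelial cluster. At E11.5, 49 of its 53 UMIs lay in 24 of the 60 cells with endothelial markers. In the unnamed E16.5 cluster, with 115 of 171 cells of endothelial markers, it was at 28.7 CPM (21.2 to 38.0). Foxo1, which restrains endothelial growth, was at 41.2 and 39.9 CPM in the E11.5 and E14.5 endothelial clusters. In the E11.5 muscle cluster, where 75 of 130 cells had muscle markers, Foxp1 reached 323 CPM (290 to 358). This was its highest level among the classes of that day. How the E11.5 Foxo1 and Foxp1 UMIs of these mixed clusters split by the markers of single cells is not given.

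Foxm1 followed the marker of cycling cells, Mki67. In mesenchyme it was at 19.9 CPM in Mki67+ and 10.9 CPM in Mki67- cells at E11.5, at 24.0 and 4.33 CPM at E14.5 and at 21.7 and 3.13 CPM at E16.5. In epithelium it was at 11.2 and 4.87 CPM at E14.5 and at 13.2 and 4.37 CPM at E16.5. The log2 ratios were 0.86, 2.47 (1.99 to 2.98) and 2.80 (2.26 to 3.37) in mesenchyme and 1.21 (0.25 to 2.29) and 1.59 (0.98 to 2.27) in epithelium. Foxm1 was thus higher in Mki67+ cells in all 5 groups and past 2-fold in 4 of them. With cells thinned to 2000 UMIs the 4 ratios were 1.67 and 3.04 in mesenchyme of E14.5 and E16.5 and 1.24 and 1.71 in epithelium.

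Few other members differed with Mki67. In E11.5 mesenchyme 1 of 21 was past 2-fold, beside 1.53% of all genes, and this was Foxl1 at -1.44, which was -0.09 after thinning. In E14.5 mesenchyme 1 of 14 members was past it, beside 5.98% of genes, and in E14.5 epithelium 1 of 10, beside 3.27%. In both groups this member was Foxm1 itself. In E16.5 mesenchyme 2 of 18 members were past it, beside 7.21%, with Foxc2 at -1.89 next to Foxm1. In E16.5 epithelium 1 of 15 members was past it, again Foxm1, beside 3.97%. Foxp1 was past 2-fold in none of the 5 groups, with log2 ratios of -0.28 and -0.67 in mesenchyme and 0.17 and 0.32 in epithelium at E14.5 and E16.5. Mki67+ cells were deeper in each group, at medians of 4912.5 to 10491 UMIs against 2816.5 to 5264. The summed erythroid list was at 1046 against 2289 CPM in E11.5 mesenchyme, with 8 of 10 markers past 2-fold lower in Mki67+ cells. In E16.5 epithelium 2 of 5 tested erythroid markers were past 2-fold higher. In E14.5 mesenchyme 3 of 4 tested cartilage and 2 of 4 tested bone markers were past 2-fold lower. The part of depth, free RNA and other cell types was not tested.

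**Figure D5:**
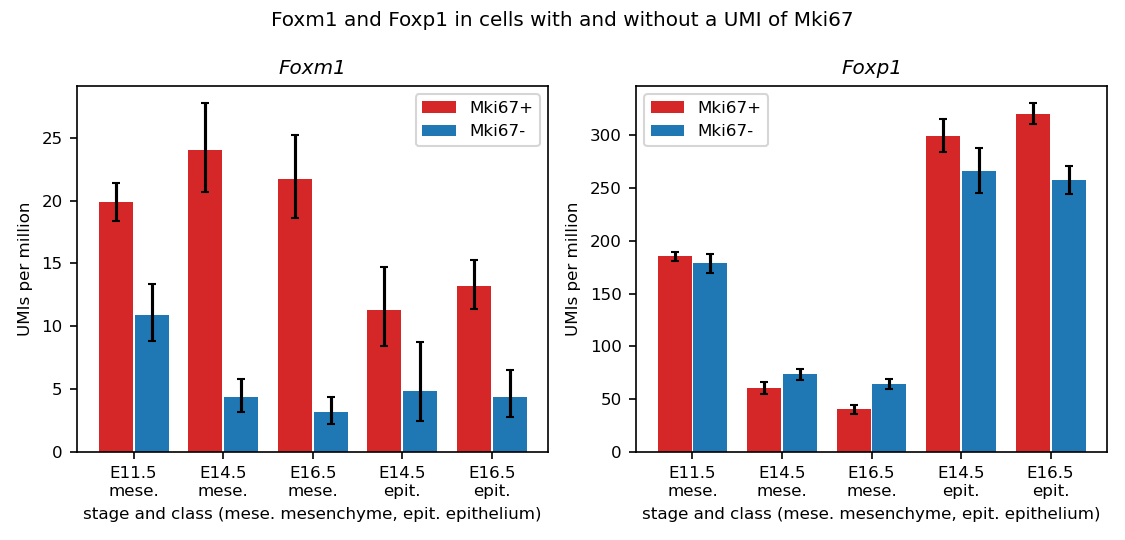
Bars give the CPM level of Foxm1 and Foxp1 in Mki67+ and Mki67- cells of mesenchyme and epithelium by stage, with exact Poisson 95% intervals. The Foxm1 bar is higher in the Mki67+ cells of all 5 groups, and the Foxp1 bar is higher in the Mki67- cells of mesenchyme at E14.5 and E16.5 and in the Mki67+ cells of epithelium.

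Genes tied to Fox factors were read beside them, from lists of 10 each. Of the hedgehog list, Ptch1, Hhip and Gas1 were past 2-fold lower in epithelium at E14.5 and again at E16.5, beside the 21.0% and 22.1% of all genes past it, with list medians of -0.45 and -0.28 on the log2 scale. In mesenchyme, Gli1, Ptch1 and Hhip were past 2-fold higher and Gas1 lower at E14.5 than at E11.5, and Hhip was higher at E16.5 than at E14.5. None of the 10 was past 2-fold between Barx1+ Hand2- and Hand2+ Barx1- cells, beside 4.19% of all genes. The same held between Msx1+ and Msx1- cells, beside 2.08%. With shares this low among all genes, the lack of a called gene in a list of 10 is not read as a result. Of the list linked to Foxo factors, 2 of 9 tested were past 2-fold higher at E14.5 than at E11.5 (Klf2 and Pik3ip1), a share near the 21.7% of all genes, and 3 of 10 were higher at E16.5 than at E14.5 (Cdkn1b, Klf2 and Txnip), beside 9.69% of all genes past it in either direction. There the list median was 0.65 and that of all genes 0.17. Between epithelium and mesenchyme, Klf2 was lower in epithelium at both days, and Bcl6 was lower and Pik3ip1 higher at E16.5. Of the cell-cycle list, which holds Mki67 itself, 7, 10 and 10 of 10 were past 2-fold higher in Mki67+ mesenchymal cells at the 3 days and 9 and 10 of 10 in epithelial cells.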

How the data were processed

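Single-cell 3' transcriptomes (10x Genomics v3 chemistry) had been processed by the authors with Cell Ranger 4.0.0 against mm10, and the deposited matrices, 1 a stage, hold raw UMI counts per gene and barcode. Total counts were 49264075, 31670249 and 42895059 UMIs in order of stage. A cell was kept when it had 700 genes or more and no more than 20% mitochondrial UMIs. The members, gene lists and comparisons were chosen with earlier results of these data known.

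Cells of each stage were normalised with sctransform 0.4.2 and clustered by the Leiden method in Seurat 5.3.0 (R 4.3.3, 2000 variable genes without the Fox genes, Barx1, Msx1, Hand2, Sox2 and Mki67, 20 principal components, resolution 0.4). Clusters were named from marker lists by a scoring rule that was changed once its first names were known. Genes at about the same share in every cluster were left out with a tolerance of 3-fold, without which the E11.5 cluster led by Cited1 would have had no name. Doublets were not removed, because Scrublet (scanpy 1.11.5) called nearly none by its own threshold, and the 5% of cells with the highest scores were removed as an alternative. Cells were also classed singly. A class other than epithelium and mesenchyme was given first, where its marker UMIs stood far above those expected from depth. The other cells were called epithelium or mesenchyme by the class with more detected markers, at least 2.

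For each group of cells, the UMIs of a gene were divided by all UMIs of the group. Poisson, Clopper-Pearson and conditional binomial 95% intervals (scipy 1.17.1, numpy 2.4.6, pandas 2.3.3) cover counting error only. A gene with at least 50 counts over both groups was called at a ratio of 2-fold or more, and a group at 0 was set to 3 counts. With 1 matrix a stage, taken as 1 sample, no test was run. Named genes were members past this limit, members limited to few cell groups and the most abundant members, and the lists were hedgehog genes, genes linked to Foxo factors and cell-cycle genes, of 10 genes each. Not every gene of these lists is reported here. Positions were taken from a GRCm38 annotation and promoter windows from RefSeq, GRCm38.p6, which held 28 of the 44 members. The scripts were tested on simulated data. Other cell filters, resolutions, count limits, an added 10 CPM, thinning to 2000 UMIs, single-cell classes and doublet removal were tried as alternatives.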

Additional observations from a re-analysis of the deposited data

Results flagged for a closer look

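Some members moved in opposite directions with Mki67 in different groups of cells, with counting intervals on opposite sides of 0, although the difference itself was not tested. The log2 ratio of Mki67+ over Mki67- cells was -0.32 for Foxd1 in E11.5 mesenchyme and 0.50 in E14.5 mesenchyme. It was 0.57 for Foxk1 in E11.5 mesenchyme and -0.52 in E16.5 mesenchyme. For Foxp1 it was -0.28 in mesenchyme and 0.17 in epithelium at E14.5, and -0.67 and 0.32 at E16.5.

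Features named as antisense to a member, which are no members, also held signal. Foxd2os, which by its name is antisense to Foxd2 but does not overlap it in the annotation used, had 1083, 98 and 950 UMIs in order of stage. In mesenchyme it was at 23.9, 3.76 and 46.2 CPM, with its lowest level at E14.5, as for Foxd2. Foxl2os had 8 UMIs, all at E11.5.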

How the results depend on the processing

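No paired analysis was possible because the barcodes could not be assigned to the samples that carry the replicate numbers, and for the same reason no replicate could be left out. The 124 counts under alternatives were of members past 2-fold, detected per stage, or at 10 CPM or more in E11.5 mesenchyme. Of these, 102 stayed within 1.5 times the reported count, and the 22 that did not were all counts of members past 2-fold. Other count limits left the log2 ratio of a member unchanged, and an added 10 CPM could not change its sign. Some of the 535 log2 ratios of single members were thus bound to keep their sign. Of the 535, 534 kept it. The exception was Foxp2 in E14.5 epithelium over mesenchyme, at -0.50 after thinning to 2000 UMIs. With 10 CPM added, the members past 2-fold were 4 and 4 for epithelium over mesenchyme at E14.5 and E16.5, 5 and 1 for mesenchyme of E14.5 over E11.5 and E16.5 over E14.5, 3 for Barx1 against Hand2, 0 for Msx1 and 0 for Sox2 at E16.5. With at least 20 counts in place of 50 they were 13 and 14 for epithelium over mesenchyme, 4 for mesenchyme of E16.5 over E14.5, and 3 and 5 for Sox2 at E14.5 and E16.5. With at least 100 counts, 1 was past it for Sox2 at E16.5. After thinning they were 4 for epithelium over mesenchyme at E16.5, 1 for mesenchyme of E16.5 over E14.5 and 3 for Msx1. For Mki67, thinning left 0 in E11.5 mesenchyme, 1 in E16.5 mesenchyme and 0 in the epithelium of E14.5 and E16.5, where 2 and 8 members still had 50 counts. In alternatives added after the data had been seen, the Msx1 count was 3 without the E11.5 cluster led by Cited1 and 3 without that of low depth. Where thinning lowered a count, fewer members reached 50 counts. Ratios changed as well, as for Foxl1 with Mki67 in E11.5 mesenchyme, at -1.44 before and -0.09 after thinning. The cause was not tested for any setting. The share of all genes past 2-fold at each setting is not given here, so the changed counts are not read as a result about the members. After thinning, Foxf1, Foxo4 and Foxo6 had no UMI in Sox2+ cells of E16.5 and gave no value. Over the alternatives, the members detected ranged from 22 to 27, 22 to 28 and 22 to 27 at the 3 stages.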
